A study of Bos taurus with 18 samples.

Results

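Theca and membrane granulosa, the layers on the outer and inner side of the basal lamina of the ovarian follicle, were compared in bovine preovulatory follicles after the surge of luteinizing hormone (LH). The comparison used 3 arrays of theca and 3 arrays of membrane-associated granulosa, 6 of the 18 arrays of the series, chosen by their labels alone. Each of cows A, B and C gave both tissues from a single dominant follicle, so the arrays were paired by cow. These cows had received GnRH, which releases LH, and the sample labels put the collection 22 h after it, while a protocol label counts the same 22 h from the LH surge. Antral (aspirated) granulosa of the same follicles, and theca and membrane granulosa of cows D, F and G sampled before the surge, show where the comparison differs and also enter the estimate of the spread. Breed, age and any other treatment of the cows are not given in the sources used here, and each group rests on 3 animals with 1 follicle each.

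Theca cells lie outside the basal lamina with fibroblasts, smooth muscle and blood vessels, carry LH receptors and make androgen. Granulosa cells lie inside it without vessels of their own, take up that androgen and convert it to oestradiol under follicle-stimulating hormone. The LH surge stops this exchange, starts prostaglandin synthesis and matrix remodelling in the follicle wall, and turns both layers towards the luteal cells that make progesterone.

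RNA was hybridised to Affymetrix 3' expression arrays, and the deposited values are log2 signals from 2.29 to 14.9, on which a difference of 1 is a 2-fold difference. Array medians were 5.84, 5.86 and 5.81 in theca and 5.76, 5.79 and 5.82 in membrane granulosa of cows A, B and C. Arrays correlated at 0.974 to 0.989 within theca, at 0.97 to 0.99 within membrane granulosa and at 0.937 to 0.983 between them. Differences are theca minus membrane granulosa on the log2 scale, as the mean over 3 cows ± limma's standard error. Its spread comes from all 18 arrays, before LH and antral granulosa included, and is not the spread of the 3 cows alone. The adjusted p comes from a limma model that holds the cow as a block, corrected over 24016 probe sets by the Benjamini-Hochberg method, and "called" means an adjusted p under 0.05. A signal below 4.62, the upper bound of the dimmest 8005 probe sets, is taken as dim, and a difference from a group that is dim on all 3 arrays is given as a lower bound. The small number of arrays limits the precision, and levels of different genes are not comparable.

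Theca and membrane granulosa after LH differed at 6187 of 24016 probe sets, or 25.8%, of which 2737 (11.4%) were higher in theca and 3450 (14.4%) lower. With only the arrays of these 2 tissues after LH in the model 4400 were called. Among 9028 named genes, each read from its brightest probe set, 2841 (31.5%) were called, 1416 (15.7%) higher in theca and 1425 (15.8%) lower. The counts in the 2 directions were nearly equal, but the sizes were not. Of the called genes, 701 were higher by at least 1 on the log2 scale and 326 lower, and at 3 or more there were 48 higher and 1 lower. The median difference over all genes was 0.00. The groups did not overlap at 7776 probe sets (32.4%) and 3248 genes (36%). In bulk tissue a type with fewer cells cannot be told apart from one with less RNA per cell.

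The 3 follicles were not alike. In cow C the standard deviation of the difference over 9028 genes was 0.47, while it was 0.90 in cow A and 0.89 in cow B. Of 688 called genes that were higher in theca by at least 1 and in each of the 3 cows, the difference was smallest in cow C for 95.1%, as it was for 83.9% of 323 called genes lower by at least 1 and in each cow. Without cow A 2617 probe sets were called and without cow B 2467, while without cow C 6255 were, against 6187 with all cows. Summed signal of 14 fibroblast markers in membrane granulosa was highest in cow C, at 14.39 on the log2 scale, the upper end of a range from 12.86. The part of fibroblasts in the smaller differences of cow C was not tested.

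**Figure D1:**
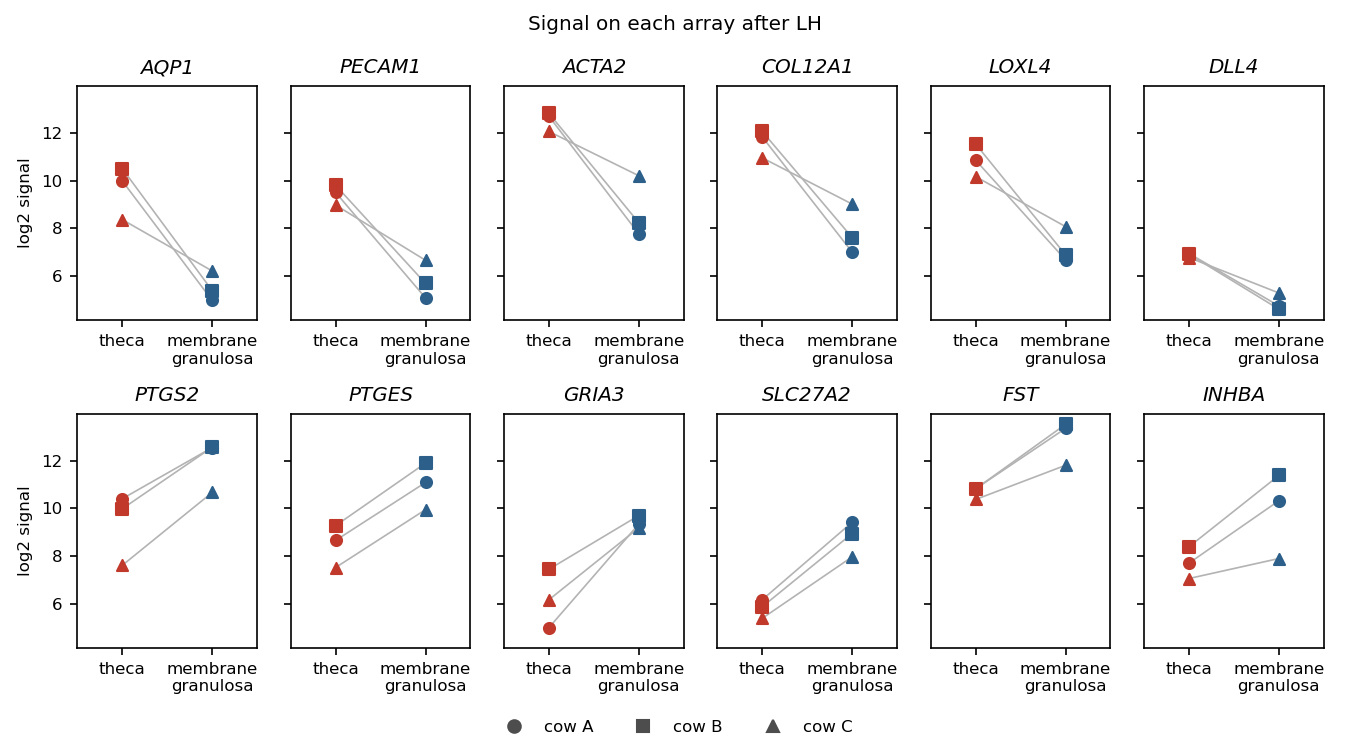
Log2 signal of 12 genes on each array after LH, theca on the left and membrane granulosa on the right of every panel, with a line joining the arrays of a cow and a symbol per cow. The upper row shows genes higher in theca and the lower row genes lower in theca. In AQP1, PECAM1, ACTA2, COL12A1, LOXL4 and DLL4 the line of cow C is the flattest. In PTGS2 the line of cow C is the steepest, and in GRIA3 that of cow B is the flattest.

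AQP1, a water channel of capillary endothelium, had signals of 9.98, 10.50 and 8.36 in theca of cows A, B and C, against 4.98, 5.39 and 6.21 in membrane granulosa. It was the gene with the largest difference, 4.09 ± 0.54 (adjusted p = 0.0003), and every theca array lay above every membrane granulosa array. Caveolar CAVIN2 (4.04 ± 0.51), the endothelial sialomucin EMCN (3.86 ± 0.47) and the smooth muscle actin ACTA2 (3.79 ± 0.51) followed. EDN1, the vasoconstrictor endothelin 1, was at 8.07, 9.28 and 7.65 in theca, against 4.24, 4.56 and 5.12 in membrane granulosa. Its difference was 3.69 ± 0.37 (adjusted p = 7.8e-05), and its membrane granulosa signal was dim in cows A and B. The other genes among the 15 largest rises were the transcription factor NFIB (3.78), the fibril-associated collagen COL12A1 (3.74), the metalloprotease-like ADAMDEC1 (3.70), the adhesion receptor ADGRF5 (3.64), the lysyl oxidases LOXL4 (3.64) and LOXL1 (3.45), PECAM1 (3.62), RARRES1 (3.52), the integrin chain ITGB3 (3.47) and ITGBL1 (at least 3.10).

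GRIA3, a glutamate receptor subunit, was at 5.0, 7.44 and 6.17 in theca, against 9.34, 9.70 and 9.18 in membrane granulosa, a difference of -3.21 ± 0.33 (adjusted p = 8.6e-05). Its theca arrays spread widely, yet all lay below the membrane granulosa arrays, which were close together. SLC27A2, a fatty acid transporter and acyl-CoA synthetase, was at 6.17, 5.87 and 5.39 in theca, against 9.42, 8.94 and 7.96 in membrane granulosa (-2.97 ± 0.36, adjusted p = 0.00019). Both tissues of cow C were the lowest of their group. The heparan sulphate sulfotransferase HS3ST5 (-2.73 ± 0.27) was lower in theca in each cow, although the groups overlapped because cow C was low in both. The RNA-binding RBM24 (-2.73 ± 0.22), the HMG-box factor TOX (-2.67 ± 0.34), the decoy receptor TNFRSF6B (-2.47 ± 0.24) and the desmosomal PKP2 (-2.30 ± 0.30) were also among the 15 largest falls. The others were PTGS2, PTGES and NR5A2, described below, and APOA2 (-2.58), CABYR (-2.35), WASF1 (-2.35), IGSF1 (-2.31) and LRIG3 (-2.31).

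Of 19 granulosa markers 9 were lower in theca, 1 was higher and 9 were not called, with a median of -0.69. The share lower was 47.4%, beside 15.8% of all genes. FST, the activin-binding follistatin, was at 10.82, 10.81 and 10.37 in theca, against 13.35, 13.51 and 11.80 in membrane granulosa (-2.22 ± 0.26, adjusted p = 0.00016). The theca arrays were close together and all below the membrane granulosa arrays, of which cow C was the lowest. FSHR, the receptor for follicle-stimulating hormone, was at 4.21, 4.69 and 3.87 in theca, dim in 2 of 3 arrays, against 6.39, 7.05 and 5.25 in membrane granulosa (-1.97 ± 0.28). AMH (-1.94 ± 0.26), the inhibin subunits INHA (-0.89 ± 0.12) and INHBA (-2.15 ± 0.33), and SERPINE2 (-1.08 ± 0.18) were lower too, while TNNI3, a troponin chain, was higher (0.88 ± 0.19). CYP19A1, the aromatase, was dim in all theca arrays at 4.08, 3.92 and 3.91, and at 5.29, 4.99 and 3.70 in membrane granulosa (adjusted p = 0.483). HSD17B1 was lower by a small margin (-0.86 ± 0.29, adjusted p = 0.0452), ESR2 (0.17 ± 0.20) and GJA1 were not called, and FOXL2 was dim on all 6 arrays. HSD17B1 was at an adjusted p of 0.384 without cow B, 0.0656 without cow C, 0.0514 without cow D and 0.0601 without cow F, and TNNI3 at 0.0730 without cow A.

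Of 9 theca markers 3 were higher in theca and 6 were not called, with a median of 0.81. The share called was 33.3%, beside 31.5% of all genes, of which 15.7% were higher and 15.8% lower. NR2F2, a nuclear receptor of theca and stroma, was at 10.84, 10.24 and 10.08 in theca, against 8.93, 8.69 and 8.67 in membrane granulosa (1.62 ± 0.24, adjusted p = 0.00057). The mesenchymal factor TCF21 was higher by 2.80 ± 0.53. PRSS35 was higher by 1.11 ± 0.29, with an adjusted p of 0.216 without cow A and 0.0563 without cow B. INSL3, a theca cell hormone, was at 14.31, 14.60 and 13.95 in theca, against 12.23, 13.32 and 13.22 in membrane granulosa. The groups did not overlap, but the difference of 1.36 ± 0.53 was not called (adjusted p = 0.0786). Antral granulosa had less INSL3 signal than membrane granulosa, at 9.28, 10.24 and 11.08 (adjusted p = 0.0277 for antral minus membrane granulosa). CYP17A1, which makes androgen, was at 5.28, 5.57 and 5.61 in theca, against 4.88, 4.67 and 4.48 in membrane granulosa (0.81 ± 0.66, adjusted p = 0.435). The spread behind these tests is shared with the arrays before LH, where membrane granulosa of cow F was low in both genes. Without cow F INSL3 was called (adjusted p = 0.0122), as was CYP17A1 (0.0382), and 5 of the 9 markers were higher. With only the arrays compared INSL3 (0.0306) and CYP17A1 (0.0363) were called and PRSS35 was not (0.0960). PTCH1 was dim on all 6 arrays, and LHCGR, the LH receptor, was not called (0.17 ± 0.32, adjusted p = 0.778).

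Most markers of endothelium, muscle and fibroblasts were higher in theca, beside 15.7% of all genes. Of 18 endothelial markers 15 were higher in theca and none lower, with a median of 2.85. PECAM1, an adhesion molecule of endothelial junctions, was at 9.50, 9.80 and 8.97 in theca, against 5.08, 5.69 and 6.66 in membrane granulosa (3.62 ± 0.33, adjusted p = 6.2e-05). CDH5, the cadherin of endothelium, was at 8.42, 8.36 and 7.88 in theca, against 5.09, 5.28 and 5.74 (2.85 ± 0.30, adjusted p = 9.1e-05). In both genes the membrane granulosa array of cow C was the highest of its group. ROBO4 (2.91 ± 0.27), the angiopoietin receptor TEK (2.84 ± 0.34), the TGF-beta co-receptor ENG (2.05 ± 0.23) and EGFL7 (1.35 ± 0.14) were called, while PLVAP, KDR and FLT1 were not. Without cow C PLVAP was called as well (adjusted p = 0.0134). Summed endothelial signal ranged from 12.41 to 12.94 in theca and from 9.59 to 10.64 in membrane granulosa.

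Of 15 smooth muscle and pericyte markers 13 were higher in theca and 2, CSPG4 and TPM2, were not called. Another probe set of TPM2 was called lower in theca (-0.91, adjusted p = 0.0369), and CSPG4 was called with only the arrays compared (adjusted p = 0.0424). All 15 had groups that did not overlap, beside 36% of all genes, and the median was 2.10. Over all genes 31.5% were called, 15.7% higher in theca and 15.8% lower. ACTA2 was at 12.69, 12.81 and 12.05 in theca, against 7.76, 8.23 and 10.20 in membrane granulosa. Its theca arrays were close together and its membrane granulosa arrays were not, with cow C highest. The smooth muscle myosin MYH11 (3.01 ± 0.28), TAGLN (2.87 ± 0.41), the kinase MYLK (2.86 ± 0.41) and the intermediate filament DES (2.10 ± 0.17) were also called. Of 14 fibroblast markers 10 were higher and 1, THY1 (-1.14), was lower, with a median of 2.42. PDGFRA, the receptor that marks stromal fibroblasts, was at 10.68, 10.39 and 10.35 in theca, against 7.78, 6.57 and 9.15 in membrane granulosa (2.64 ± 0.53, adjusted p = 0.0032). Another probe set of PDGFRA gave -0.08, and without cow B the adjusted p was 0.0675. DPT (3.31), CLEC3B (2.90), SCARA5 (2.55) and DCN (2.30) were among the others. Smooth muscle calls numbered 8 without cow A and 8 without cow B, and fibroblast calls numbered 6 without cow B, where THY1 was at an adjusted p of 0.0606.

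Leukocyte markers were called higher in 10 of 21 cases and lower in none, with a median of 1.01. The share called was 47.6%, beside 31.5% of all genes called and 15.7% called higher. AIF1, a macrophage protein, was at 9.65, 9.82 and 8.74 in theca, against 6.85, 7.62 and 7.68 in membrane granulosa (2.02 ± 0.45, adjusted p = 0.0058). CD14 (1.94 ± 0.44), TYROBP (1.88 ± 0.45), C1QC (1.67 ± 0.49) and CSF1R (1.37 ± 0.29), all of the monocyte lineage, went the same way, as did S100A8 (1.11 ± 0.24). PTPRC, which marks all leukocytes, was not called (0.96 ± 0.42, adjusted p = 0.121), nor were the lymphocyte genes CD3E, CD3D, CD2, CD79A and MS4A1. The other uncalled markers were CD68 (1.01, adjusted p = 0.149), LAPTM5 (1.70, 0.052), ITGB2 (0.99, 0.229), S100A12 (0.58, 0.222) and KIT (0.14, 0.886). Without cow A limma called 0 of the 21 markers, with 5 at an unadjusted p under 0.05, and without cow B it called 1, with 11. The adjusted p of the 6 called genes named above was 0.0607 to 0.294 without cow A. Without cow B it was 0.0548 to 0.138 in 5 of them, S100A8 being the exception. S100A8 was at 0.177 with the cow as a random block and 0.340 with no block. PTPRC, LAPTM5 and S100A12 were called without cow C (adjusted p = 0.0183, 0.0286 and 0.0079), and CD68 and LAPTM5 without cow D (0.0109 and 0.0092). Red cell markers (8) and oocyte markers (7) had 0 calls in either direction with limma, and 0 at an unadjusted p under 0.05. Summed red cell signal was 7.18 to 7.43 in theca and 7.14 to 7.34 in membrane granulosa.

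**Figure D2:**
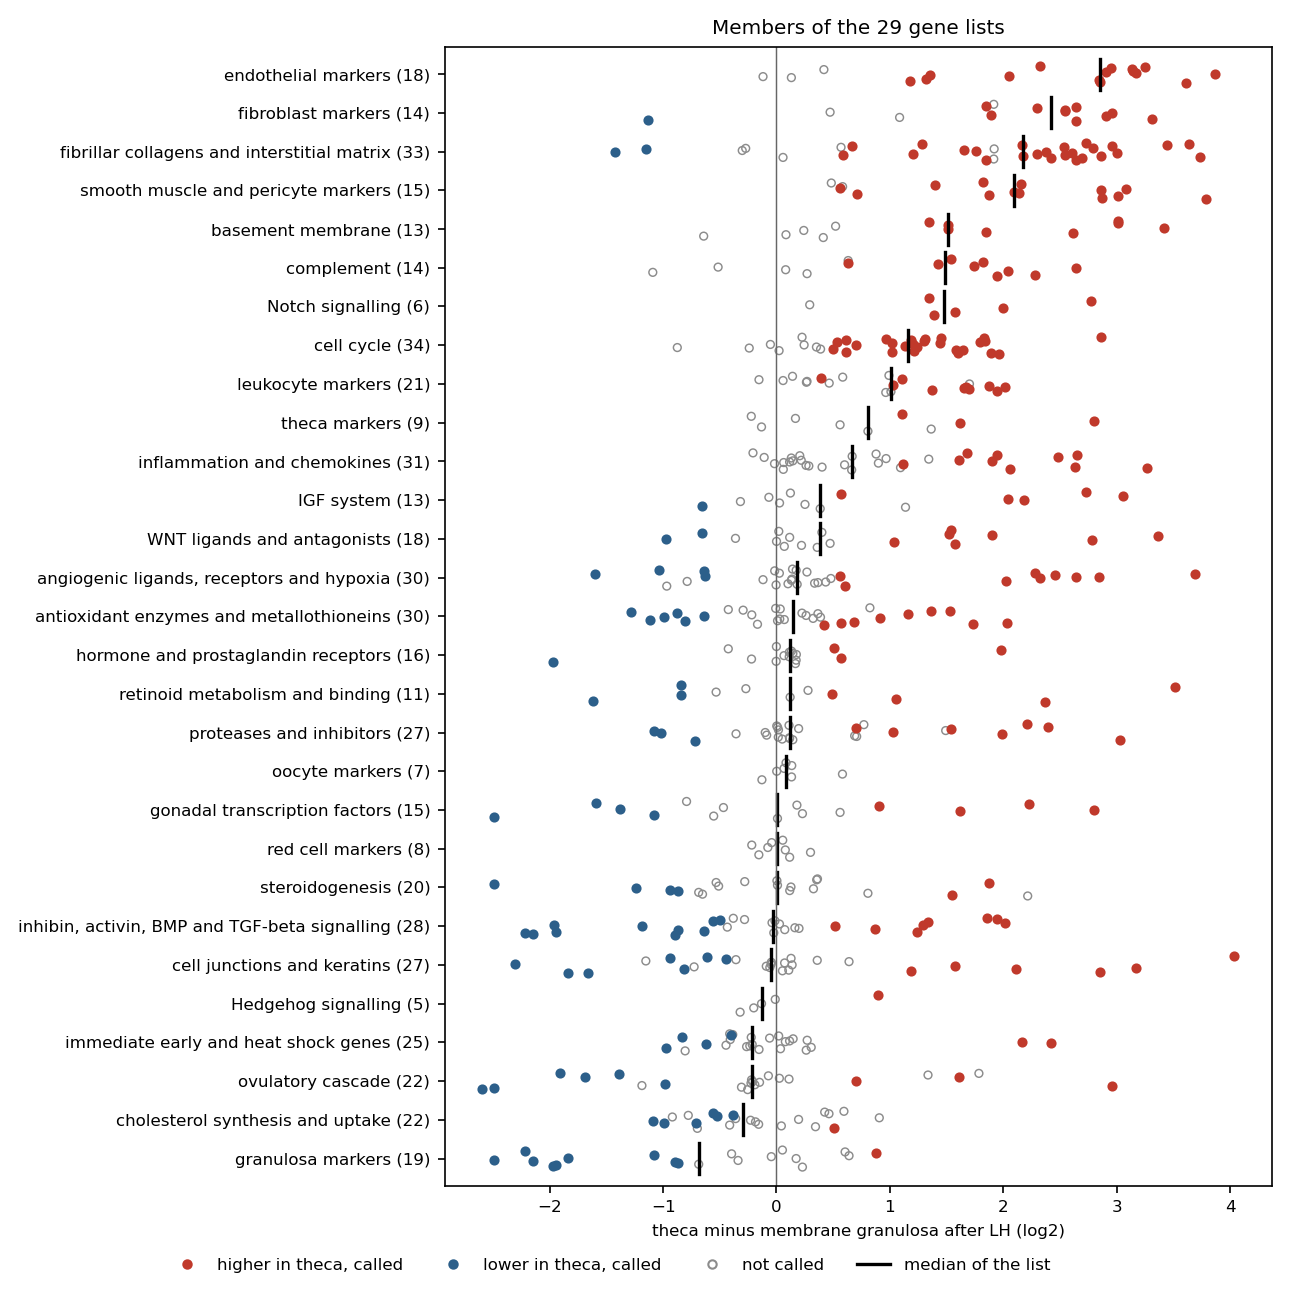
Difference between theca and membrane granulosa after LH for every measured member of 29 gene lists, sorted by list median, on a log2 axis where positive values are higher in theca. Filled points were called, open points were not, bars are list medians, and the number of measured members is in brackets. Endothelial markers have the highest median (2.85) and granulosa markers the lowest (-0.69).

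Most genes of the extracellular matrix were higher in theca, beside 15.7% of all genes. Of 33 genes of fibrillar collagens and interstitial matrix 25 were higher in theca and 2 lower, with a median of 2.18. LUM, a small proteoglycan that orders collagen fibrils, was at 12.79, 12.68 and 12.57 in theca, against 9.80, 9.37 and 11.25 in membrane granulosa (2.55 ± 0.35, adjusted p = 0.00031). COL1A1 was at 11.87, 11.51 and 10.73 in theca, against 8.19, 8.46 and 9.53 in membrane granulosa (2.64 ± 0.47, adjusted p = 0.0015). COL1A2 was higher by 1.85 ± 0.54, EMILIN1 by 2.73 ± 0.34 and OGN by 3.00 ± 0.39. COL3A1 missed the threshold (1.92 ± 0.68, adjusted p = 0.0584), while another probe set of it was called (2.17, adjusted p = 0.019). It was also called with only the arrays compared (0.0406) and with dim probe sets left out (0.0465). LOXL4, which cross-links collagen and elastin, was at 10.86, 11.53 and 10.17 in theca, against 6.68, 6.89 and 8.07. POSTN, a matricellular protein, went the other way at 10.36, 10.29 and 11.04 in theca, against 12.50, 12.13 and 11.34 in membrane granulosa (-1.43 ± 0.38, adjusted p = 0.0162), as did TNC (-1.15), of which another probe set gave 0.15. Higher matrix calls numbered 15 without cow A and 15 without cow B. Without cow A COL1A2 was at an adjusted p of 0.196 and POSTN at 0.198, without cow B at 0.146 and 0.158, and COL3A1 was called without cow C (0.0112) and without cow F (0.0365).

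Of 13 basement membrane genes 8 were higher in theca and none lower (median 1.51). NID1, which links laminin to collagen IV, was at 10.14, 10.15 and 9.44 in theca, against 5.51, 6.25 and 7.72 in membrane granulosa (3.42 ± 0.56, adjusted p = 0.0010). Its membrane granulosa arrays spread widely, with cow C highest. LAMA4 (2.62 ± 0.51), LAMB1 (1.85 ± 0.31), LAMC1 (1.51 ± 0.26) and the perlecan gene HSPG2 (1.52 ± 0.22) were called, although none of the 5 other probe sets of LAMC1 was, at -0.11 to 0.55. Of 27 proteases and inhibitors 7 were higher and 3 lower, or 37% beside the 31.5% of all genes, with the gelatinase MMP2 (3.03 ± 0.43), its inhibitor TIMP3 (1.99 ± 0.25) and the aggrecanase ADAMTS4 (2.40 ± 0.53) above and the plasminogen activator PLAT (-1.02 ± 0.20) below. Of 14 complement genes 9 were higher and none lower (median 1.49), among them C7 (2.65 ± 0.50), C1S (2.28 ± 0.39), C4A (2.04 ± 0.45) and C1R (1.94 ± 0.25). Higher basement membrane calls numbered 5 without cow A and 4 without cow B, higher protease calls 3 and 2 beside 2 lower in each case, and complement calls 3 and 3. Without cow B ADAMTS4 was at an adjusted p of 0.0731, PLAT at 0.0605 and LAMA4 at 0.0564, and C4A was at 0.0956 without cow A and 0.0687 without cow B.

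**Figure D3:**
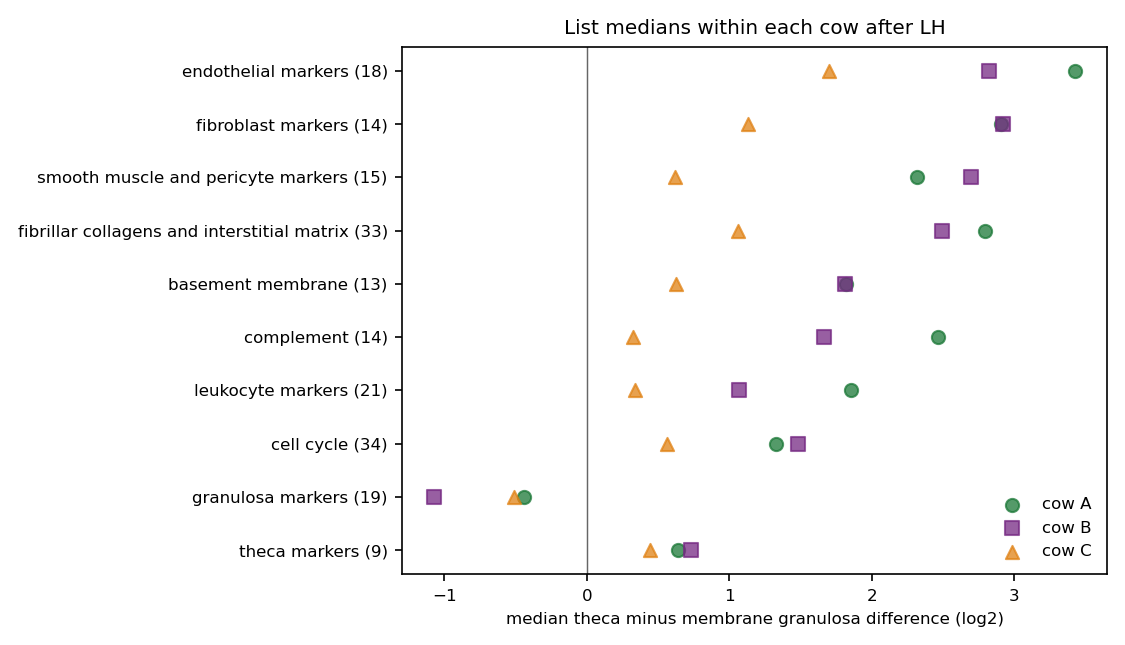
Median log2 difference between theca and membrane granulosa after LH within each cow for 10 gene lists, with the number of members in brackets. In cow C the endothelial median is 1.70 and the complement median 0.33. They are 3.43 and 2.47 in cow A, and 2.83 and 1.66 in cow B.

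PTGS2, the cyclooxygenase that LH induces, was at 10.40, 9.98 and 7.61 in theca, against 12.54, 12.56 and 10.66 in membrane granulosa (-2.59 ± 0.26, adjusted p = 7.9e-05). PTGES, the prostaglandin E synthase, was at 8.65, 9.27 and 7.52 in theca, against 11.08, 11.89 and 9.94 (-2.49 ± 0.31, adjusted p = 0.00021). In both genes each tissue of cow C was the lowest of its group, and the groups did not overlap. HPGD, which inactivates prostaglandins, was at 7.35, 7.38 and 6.12 in theca, and dim in membrane granulosa at 3.99, 4.01 and 3.98, a difference of at least 2.33 (adjusted p = 0.00012). The prostaglandin E receptor PTGER4 was higher in theca by at least 1.91, with an adjusted p of 0.0802 without cow A and 0.121 without cow B.

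Of 22 genes of the ovulatory cascade 3 were higher in theca and 6 lower, with a median of -0.22. The share called was 40.9%, beside 31.5% of all genes. Higher were 13.6% and lower 27.3%, beside 15.7% and 15.8% of all genes. Besides PTGS2 and PTGES, the lower ones included the neuropeptide NTS, at 8.90, 9.04 and 8.67 in theca, against 11.81, 11.10 and 9.43 in membrane granulosa (-1.91 ± 0.34, adjusted p = 0.0015), and SNAP25 (-1.69 ± 0.22), a protein of vesicle fusion. The peptide hormone OXT, not on that list, was at 9.89, 9.33 and 14.36 in theca, against 12.45, 11.73 and 14.63 (-1.74 ± 0.41, adjusted p = 0.0082), with both tissues of cow C far above the other cows. PTX3, a matrix protein of the expanding cumulus, was not called (-0.25 ± 0.24, adjusted p = 0.520), nor was the hyaluronan-binding TNFAIP6 (-1.19 ± 0.42, adjusted p = 0.0569), and PGR was dim on all 6 arrays. TNFAIP6 was called lower on its other probe set (-1.93, adjusted p = 0.0064), with only the arrays compared (0.0168), and under other scalings and filters (0.0456 to 0.0488). IL6 was higher by at least 0.51. The protease ADAMTS1 was higher by 0.70 ± 0.22 (adjusted p = 0.0351) and the vanin VNN2 lower by a difference of -1.38 ± 0.47 (adjusted p = 0.0467). Higher calls in the cascade numbered 1 without cow B and 5 without cow F. ADAMTS1 and VNN2 were not called without cow A (0.276 and 0.159), cow B (0.148 and 0.353) or cow C (0.0626 and 0.0604). VNN2 was at 0.0743 without cow F, and TNFAIP6 was called without cow D (0.0166) and without cow G (0.0028). OXT was at 0.135 with the cow as a random block, 0.279 with no block, 0.0621 with only the arrays compared, 0.106 without cow A and 0.105 without cow B, and IL6 at 0.0820 without cow B. With the cow as a random block ADAMTS1 was at 0.0758 and VNN2 at 0.141. Another probe set of ADAMTS1 was not called (0.66, adjusted p = 0.0985).

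Steroid genes showed no common direction, with 2 of 20 higher in theca, 4 lower and a median of 0.01. The share called was 30%, beside 31.5% of all genes. STAR, which brings cholesterol into mitochondria, was at 12.28, 11.82 and 12.29 in theca, against 9.23, 8.38 and 12.12 in membrane granulosa (2.22 ± 0.80, adjusted p = 0.0600). The arrays of cow C were level and those of cows A and B were not, and without cow C the difference was 3.24 (adjusted p = 0.0052). CYP11A1, which makes pregnenolone, was at 10.77, 10.75 and 12.92 in theca, against 8.64, 8.04 and 13.10 (1.55 ± 0.50, adjusted p = 0.0393). It was lower in theca in cow C, and the call was lost without cow A (0.203), without cow B (0.167) and without any one of cows D, F and G (0.0634 to 0.0650). It was at 0.117 with only the arrays compared and 0.291 with the cow as a random block. Steroid calls numbered 1 higher and 1 lower without cow A, and 1 higher and 0 lower without cow B, where 4 were lower at an unadjusted p under 0.05. HSD3B1, which makes progesterone, was at 11.06, 9.66 and 13.51 in theca, against 12.10, 10.30 and 13.78 in membrane granulosa, lower in each cow but not called (-0.65 ± 0.30, adjusted p = 0.146), and called without cow C (0.0327). NR5A2, an activator of steroid genes in granulosa, was at 7.34, 6.24 and 9.24 in theca, against 10.56, 9.57 and 10.15 (-2.49 ± 0.62, adjusted p = 0.0104), with an adjusted p of 0.127 without cow A and 0.102 without cow B. NR0B1, a repressor of steroid genes, was higher by at least 1.52. Of 22 cholesterol genes 6 were lower in theca and 1, MVK, higher, or 31.8% called beside the 31.5% of all genes. MSMO1 (-1.09 ± 0.25), LSS (-1.0 ± 0.33) and SQLE (-0.71 ± 0.21) of the synthesis pathway were among the lower ones. Other probe sets of LSS (-0.10 and -0.38) and of MVK (0.25 and 0.45) were not called. Limma called 0 lower without cow A or without cow B, with 2 and 3 at an unadjusted p under 0.05. MVK was then at an adjusted p of 0.0936 and 0.0734, and LSS was not called without cow D (0.0605) or cow G (0.0597) either. With the cow as a random block LSS was at 0.0866 and SQLE at 0.434. Without cow C 3 cholesterol genes were called higher.

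Signalling genes fell on both sides, where over all genes 31.5% were called, 15.7% higher in theca and 15.8% lower. All 5 called Notch genes of 6 were higher in theca. The endothelial ligand DLL4 was at 6.95, 6.92 and 6.77 in theca, against 4.75, 4.61 and 5.29 in membrane granulosa (2.00 ± 0.18, adjusted p = 5.3e-05). The arrays of each group were close together. JAG1 (1.57 ± 0.27), NOTCH4 (1.39 ± 0.14), and the fringe enzymes MFNG (2.77 ± 0.34) and LFNG (1.35 ± 0.32) were the others, and LFNG was at an adjusted p of 0.106 without cow A and 0.137 without cow B. Of 28 genes of inhibin, activin, BMP and TGF-beta signalling 8 were higher and 10 lower. TGFB2, a ligand, was at 9.34, 8.74 and 8.18 in theca, against 11.26, 11.73 and 9.15 (-1.96 ± 0.30, adjusted p = 0.00067), while ID3, a target of BMPs, was higher by 1.86 ± 0.22. Lower calls numbered 5 without cow A and 5 without cow B, and higher calls 5 without cow B. Of 13 genes of the IGF system 5 were higher, IGFBP6 (3.06 ± 0.43), STC1 (2.73 ± 0.43), IGFBP3 (2.18 ± 0.31), IGFBP4 (2.04 ± 0.35) and IGFBP7 (0.57 ± 0.11), which all bind IGF or act on its release. The receptor IGF1R was lower (-0.66 ± 0.21), at 0.231 without cow A, 0.317 without cow B, 0.0519 without cow D and 0.107 with only the arrays compared. Another probe set of IGF1R was not called (-0.05, adjusted p = 0.893).

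In the WNT list 7 of 18 genes were higher in theca and 2 lower. RSPO3, a secreted amplifier of WNT signals, was at 9.53, 9.50 and 7.12 in theca, against 5.48, 5.68 and 4.90 in membrane granulosa (3.36 ± 0.53, adjusted p = 0.00076), and the theca array of cow C was the low one. The receptors FZD1 (1.90 ± 0.25) and FZD4 (1.52 ± 0.19), the transcription factor LEF1 (1.54 ± 0.19) and the antagonist SFRP1 (1.58 ± 0.28) were also higher. Of 31 inflammation genes 10 were higher and none lower, or 32.3% called beside 31.5% of all genes, with 15.7% of all genes higher. The median was 0.67. Before LH 16 of the 31 were higher and none lower, with a median of 0.85. CXCL10, an interferon-induced chemokine, was at 9.45, 10.27 and 8.53 in theca, against 5.96, 6.31 and 6.17 (3.27 ± 0.40, adjusted p = 0.00017), and SELP (2.65 ± 0.32) and ICAM1 (2.49 ± 0.41), which hold leukocytes to endothelium, were higher too. Calls numbered 6 without cow A and 5 without cow B. Among 30 angiogenic genes 9 were higher and 4 lower, with the neuropilin NRP2 (2.32 ± 0.37) above and HIF1A (-0.63 ± 0.13) below. Without cow A the counts were 5 and 2, without cow B 4 and 0 with limma, where 4 were lower at an unadjusted p under 0.05 and HIF1A was at an adjusted p of 0.0598. The Hedgehog list of 5 held 1 call, the co-receptor BOC (0.89 ± 0.21), which was at 0.0867 without cow A and 0.0905 without cow B.

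Retinoid, redox, junction and transcription factor genes were divided. RDH10, which oxidises retinol, was at 9.77, 7.65 and 9.75 in theca, against 11.39, 9.40 and 11.24 in membrane granulosa (-1.62 ± 0.17, adjusted p = 9.3e-05). Both tissues were low in cow B, so the groups overlapped although the difference was almost the same in each cow. ALDH1A1, the next enzyme towards retinoic acid, was higher by 2.37 ± 0.69, with an adjusted p of 0.141 without cow A and 0.144 without cow B. The retinoid list held 4 higher and 3 lower of 11, with 1 higher and 1 lower without cow A, and 1 higher without cow B. Of 30 antioxidant genes 9 were higher and 6 lower, such as MGST1 (2.03 ± 0.30) and GCLM (-1.28 ± 0.27), and without cow A 3 and 1 were called, without cow B 4 and 1. GCLM was at 0.0569 without cow A and 0.0788 without cow B. Of 27 junction genes 6 were higher, led by the endothelial CLDN5 (3.17 ± 0.45) and F11R (1.57 ± 0.28), and 7 lower, such as PKP2 and the epithelial cadherin CDH1 (-1.67 ± 0.32). Lower junction calls numbered 4 without cow A and 3 without cow B. Another probe set of F11R was not called (0.56, adjusted p = 0.123). Of 15 gonadal transcription factors 4 were higher and 4 lower, among them ZEB1 (2.23 ± 0.30) above and SOX4 (-1.59 ± 0.21) and GATA6 (-1.08 ± 0.21) below, with 2 lower calls without cow B, where GATA6 was at an adjusted p of 0.0629. Of 16 hormone receptors 3 were higher and 1 lower (25%), and of 25 immediate early and heat shock genes 2, KLF4 and MYC, were higher and 4 lower (24%), beside the 31.5% of all genes. Among the receptors limma called 0 higher without cow A, with 3 at an unadjusted p under 0.05, and 1 without cow B. Among the immediate early genes 1 was lower without cow A, 1 without cow B and 2 without cow C, where 4 were higher, and MYC was at 0.175 without cow A and 0.142 without cow B.

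Most cell cycle genes were higher in theca after LH, beside 15.7% of all genes, and few were before. Of 34 genes 26 were higher and none lower after LH (median 1.16), against 3 higher and 15 lower before LH (median -0.59), when 40.4% of all genes were called, 21% higher in theca and 19.4% lower. The test of the difference between both times was called for 27 of the 34, 26 of them upward and CDKN1C, a cell cycle inhibitor, downward, while 11.7% of all genes were called, 5.73% upward and 5.97% downward. UBE2C, a mitotic ubiquitin ligase component, was at 9.09, 9.96 and 8.87 in theca after LH, against 7.16, 7.69 and 7.59 in membrane granulosa (1.83 ± 0.19, adjusted p = 8.8e-05). Before LH it was at 9.80, 9.58 and 9.57 in theca of cows D, F and G, against 10.50, 10.68 and 10.45 in membrane granulosa (-0.89 ± 0.19, adjusted p = 0.0028). The theca arrays of both times overlapped, and the membrane granulosa arrays after LH lay below all others. PCLAF (2.87 ± 0.36), CCNB2 (1.89 ± 0.24), BUB1B (1.84 ± 0.22), BUB1 (1.79 ± 0.20) and CDK1 (1.64 ± 0.21), of replication and mitosis, were higher in theca after LH as well. The median level of the 34 genes was 8.18 in theca and 6.82 in membrane granulosa after LH, and 8.50 and 8.96 before LH. The median difference within cow A was 1.33, within cow B 1.49 and within cow C 0.57.

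**Figure D4:**
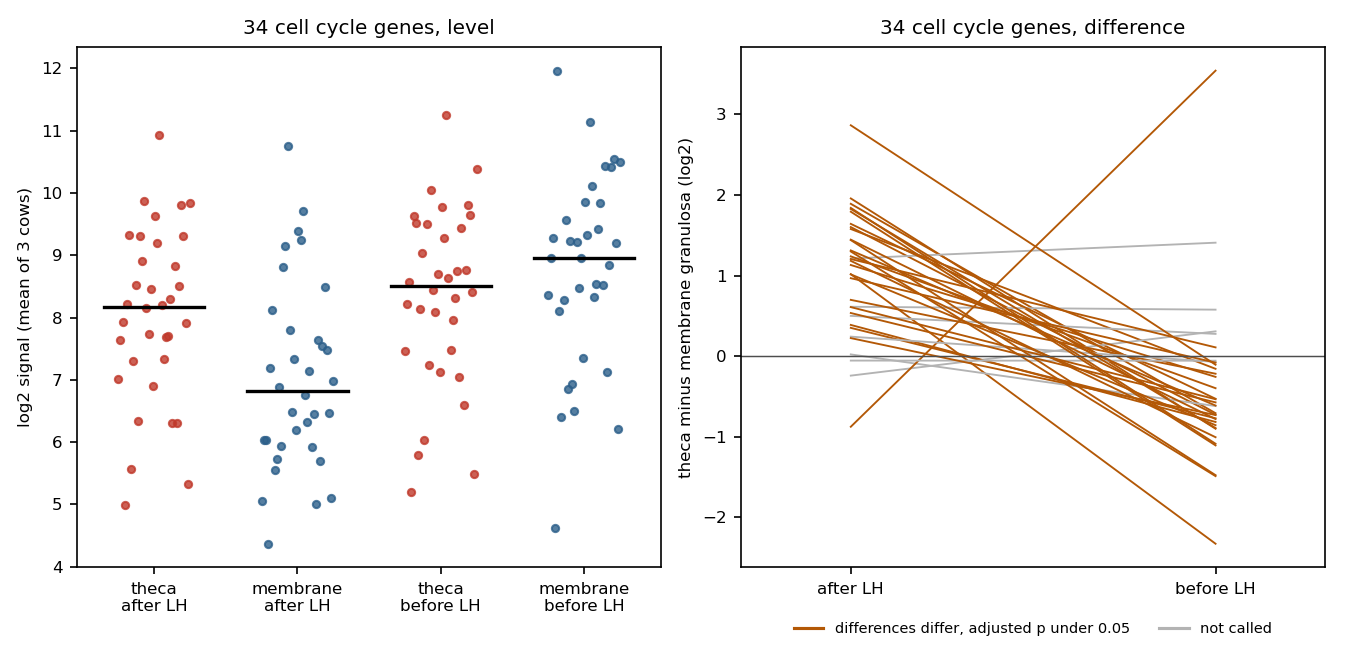
Left, mean log2 signal over 3 cows of 34 cell cycle genes in theca (red) and membrane granulosa (blue) after and before LH, with bars at the median. Right, the log2 difference between theca and membrane granulosa of each gene after and before LH, in orange where the 2 differences were called different. Medians after LH are 8.18 in theca and 6.82 in membrane granulosa, and 26 orange lines are higher after LH.

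Most genes called after LH were also called before it. Of the 1416 genes higher in theca after LH, 917 (64.8%) were also called higher before LH, and of the 1425 lower genes 765 (53.7%) were called lower before LH. These are 48.3% of the genes higher and 43.8% of the genes lower before LH. A further 82 genes were higher in theca after LH and lower before it, and 69 were lower after LH and higher before it. The test of the difference was called for all 82 and all 69. It uses the same fit, so calls in opposite directions all but fix its outcome, and it adds no support. Over all probe sets that test called 2192 of 24016, or 9.13%, 1095 (4.56%) upward and 1097 (4.57%) downward. The follicles before and after LH came from different cows.

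In the 5 genes with the largest downward change of the difference, the mean of theca was below that of membrane granulosa after LH and above it before LH. CAV1, the main protein of caveolae, was at 12.01, 11.71 and 11.28 in theca after LH, against 13.00, 12.75 and 12.07 in membrane granulosa (-0.94 ± 0.20, adjusted p = 0.0042). Before LH it was at 10.32, 11.10 and 10.66 in theca, against 6.40, 5.99 and 6.32 in membrane granulosa (4.46 ± 0.20). The difference changed by -5.40 ± 0.28 (adjusted p = 3.6e-06). The membrane granulosa arrays after LH all lay far above those before LH, while the theca arrays of both times were closer together. TGFB2 was at 7.81, 7.23 and 7.66 in theca before LH, against 4.44, 4.79 and 4.48 in membrane granulosa, so its difference changed by -4.96 ± 0.43. The junction gene CLDN11 (-5.17 ± 0.57), the cytoskeletal LMO7 (-4.96 ± 0.35) and P4HA3 (-4.53 ± 0.35), a collagen prolyl hydroxylase, completed the 5. The CLDN11 difference after LH was itself not called (-0.73, adjusted p = 0.230), while another probe set of it was (-1.28, adjusted p = 0.0304). POSTN was lower in theca after LH (-1.43 ± 0.38) and higher before LH (2.44 ± 0.38), and PTGS2 was dim in both tissues before LH. CAV1 after LH was at an adjusted p of 0.0597 without cow B, and POSTN at 0.198 without cow A and 0.158 without cow B.

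In the 5 genes with the largest upward change, the mean of theca was above that of membrane granulosa after LH and below it before LH. SRGN, a proteoglycan of secretory granules, was at 11.45, 11.43 and 10.49 in theca after LH, against 9.04, 10.98 and 9.29 in membrane granulosa (1.35 ± 0.29, adjusted p = 0.0051). Before LH it was at 11.28, 12.29 and 10.91 in theca, against 13.42, 13.83 and 13.66 in membrane granulosa (-2.15 ± 0.29), and the difference changed by 3.50 ± 0.42. The theca arrays of both times overlapped, and the membrane granulosa arrays after LH all lay below those before LH. The amino acid transporter SLC7A5, at 9.04, 8.47 and 8.62 in theca after LH, against 5.93, 5.72 and 5.64 before, changed by 3.40 ± 0.33. RASGEF1B (3.41 ± 0.52), the D-type cyclin CCND2 (3.34 ± 0.30) and DLL4 (3.34 ± 0.25) were the others. After LH another probe set of RASGEF1B was higher in theca by at least 0.63 and not called (adjusted p = 0.0763). SRGN after LH was at an adjusted p of 0.0853 without cow A, and CCND2 at 0.0789.

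**Figure D5:**
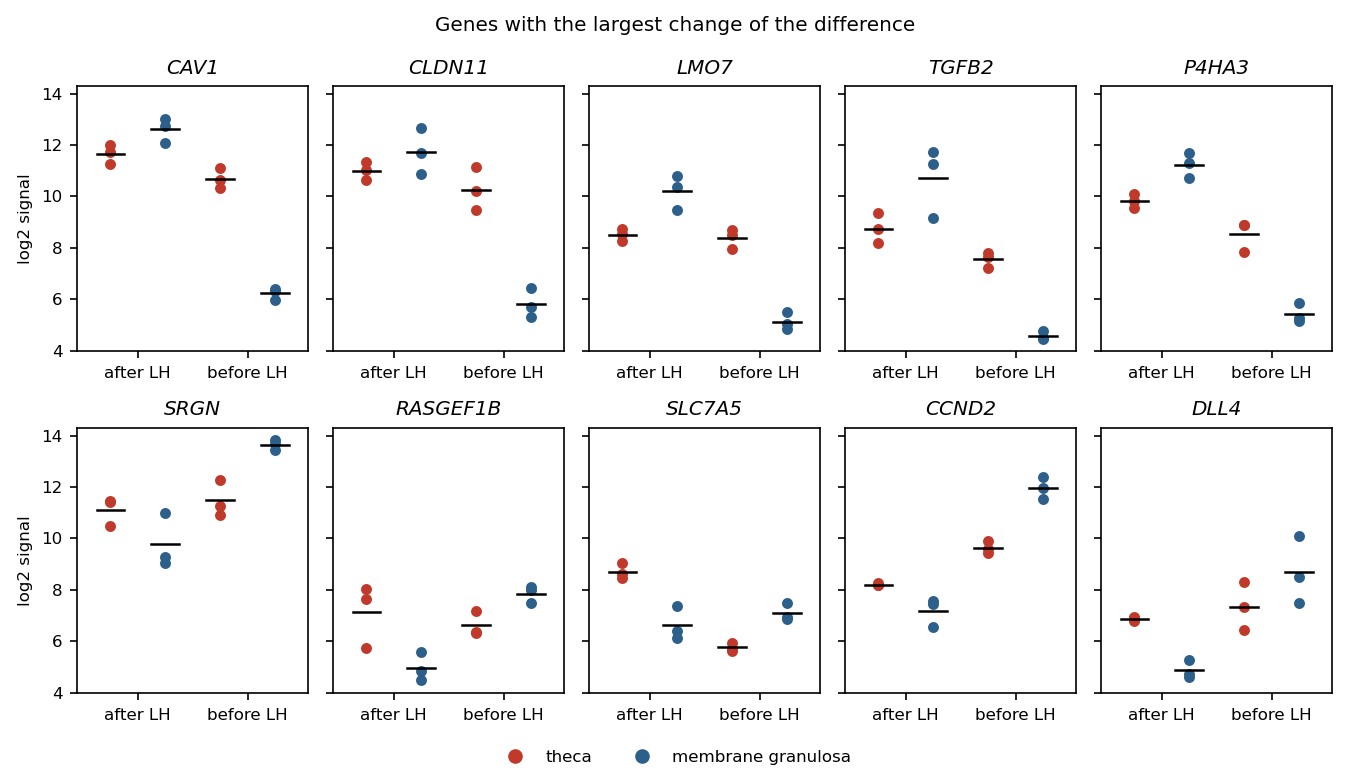
Log2 signal on each array of the 10 genes whose difference between theca (red) and membrane granulosa (blue) changed most between after and before LH, with bars at the mean of 3 cows. In the upper row the mean of theca is below that of membrane granulosa after LH and above it before LH, and in the lower row the reverse holds.

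Antral granulosa of the same follicles differed from membrane granulosa at 721 probe sets, or 3%, 343 (1.43%) higher in antral granulosa and 378 (1.57%) lower. Higher and lower calls were 368 and 858 with only the arrays compared, 605 and 404 with the cow as a random block, 177 and 120 with no block, 196 and 365 with dim probe sets left out, 113 and 226 with 1 probe set per gene, and 19 and 143 with a 2-fold minimum. Of the named genes 310 (3.43%) were called, 106 (1.17%) higher and 204 (2.26%) lower. Members of the connective tissue lists were lower in antral granulosa and none higher, with 9 of 33 matrix genes, 5 of 14 fibroblast markers, 4 of 13 basement membrane genes and 3 of 15 smooth muscle markers called. ACTA2 was at 5.81, 5.15 and 7.27 in antral granulosa, against 7.76, 8.23 and 10.20 in membrane granulosa (-2.65 ± 0.51, adjusted p = 0.0277). DCN (-2.76 ± 0.44), COL1A2 (-3.89 ± 0.54) and INSL3 (-2.72 ± 0.53) were lower too, in all 3 cows. Of the granulosa markers none was called in either direction. Summed fibroblast signal was 10.50 to 11.91 in antral granulosa and 12.86 to 14.39 in membrane granulosa, with theca at 15.31 to 15.66. Whether theca cells remained in the membrane granulosa samples was not tested. These calls depend on which cows enter, since 5 probe sets were called without cow A, 0 without cow B and 280 without cow C, and at an unadjusted p under 0.05 limma called 2822, 3662 and 5184.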

How the data were processed

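RNA of theca, membrane granulosa and antral granulosa of 6 cows was measured on 18 Affymetrix 3' expression arrays. Trizol with phase lock gel gave the RNA, per the labels' protocols, and in vitro transcription added the biotin label. The deposited values are log2 signals that the authors made with RMA in Partek 6.5, per the submitters' processing notes. The settings are not given in the sources used here.

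Of 24128 entries 112 controls were left out. Of 24016 probe sets 13292 have 1 symbol in GEO's platform annotation, which can be old, 86 have several and 10638 none, and 13263 of their gene IDs matched the RefSeq table. After 127 placeholder symbols were left out, 9028 genes remained, 2873 of them with several probe sets, and each was read from the one with the highest mean over all arrays.

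One model was fitted to all 18 arrays in R 4.3.3 with the lmFit and eBayes functions of limma 3.58.1 (two-sided), with a mean for each of 6 groups and the cow as a block, which left 8 residual degrees of freedom. The Benjamini-Hochberg threshold was 0.05. The cow letters in the labels pair tissues of 1 follicle. Checked on the arrays after LH, deviations from group means correlated at 0.396, 0.489 and 0.501 between theca and membrane granulosa of the same cow, and at -0.519 to 0.195 between different cows. The deviations of a group sum to 0, so positive values within cows push those between cows down, and the contrast is partly built in. The fit was tested on simulated data with independent noise of the fitted spread. No simulated cow was given smaller differences than the others, as cow C had, so the test does not cover that case.

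The comparison, the 29 gene lists (662 genes, 506 of them measured, 8 lists of cell type markers) and the tests were chosen with earlier results of these data known. Named genes are the 15 largest rises and falls among called genes with the same sign in 3 cows. Further ones are up to 6 called members of each list and a fixed list of follicle genes. The 5 largest changes each way between after and before LH are also named, as are some but not all uncalled markers. THY1, TNNI3, TNC, CDKN1C, AREG, THBS1 and MGP were named after their values were seen. Summed marker signal is the log2 of the sum of linear signals. The alternatives were other scalings, filters, blocks and probe sets, and leaving out each cow. Plots came from Python 3.11.15 (numpy 2.4.6, matplotlib 3.10.9).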

Additional observations from a re-analysis of the deposited data

Results flagged for a closer look

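In the following genes the difference between theca and membrane granulosa was called different after LH and before it. The test was that of the change in the limma model (n = 3 cows per group). The genes were drawn only from the largest rises and falls after LH, the largest changes between times and the fixed list of follicle genes. The same test called 1056 of 9028 named genes, or 11.7%. GRIA3, TNFRSF6B, IGSF1, SLC27A2, CABYR, WASF1 and LOXL4 were among the largest rises and falls, and the test reuses their difference after LH. The largest changes were ranked on the tested value itself. In both cases the choice favours a call, which adds no separate support. Each value is the difference after LH minus the difference before LH on the log2 scale. It was negative for CAV1 (-5.40), CLDN11 (-5.17), LMO7 (-4.96), TGFB2 (-4.96), P4HA3 (-4.53), POSTN (-3.87), PTGES (-3.37), PTGS2 (-3.16), GRIA3 (-3.04), TNFRSF6B (-3.02), PTX3 (-2.72), IGSF1 (-2.06), SLC27A2 (-2.02), ADAMTS1 (-1.93), CABYR (-1.57) and WASF1 (-1.35). It was positive for ESR2 (1.27), HSD17B1 (1.53), LOXL4 (2.22), DLL4 (3.34), CCND2 (3.34), SLC7A5 (3.40), RASGEF1B (3.41) and SRGN (3.50). PTX3, in the matrix of the expanding cumulus, was at 13.52, 12.62 and 13.34 in theca and 13.52, 13.20 and 13.53 in membrane granulosa after LH. Before LH it was at 5.91, 7.21 and 6.10 in theca and dim at 4.17, 4.06 and 3.59 in membrane granulosa. Its difference before LH was therefore at least 1.78, and the change is given as fitted. The changes of GRIA3 and PTGS2, dim in both tissues before LH, and of SLC27A2 and CABYR, dim on all 3 theca arrays before LH, are as fitted too, as are those of TGFB2, POSTN and TNFRSF6B, dim on 2 of 3 membrane granulosa arrays. ADAMTS1 differed by 0.70 after LH and 2.63 before. The cows before and after LH were different animals.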

How the results depend on the processing

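Against 6187 called probe sets between theca and membrane granulosa after LH, 3053 were called with 1 probe set per gene, where fewer were tested, and 2284 with a 2-fold minimum. With no replicate block 4338 were called, and with each cow left out 2467 to 6255. The change of that difference between times was called for 2192, against 1184, 1526 and 1016 under the same 3 settings and 1074 to 2192 with a cow left out. The difference of antral from membrane granulosa was called for 721, against 339, 162 and 297, and 0 to 600 with a cow left out, where limma had 3662 at an unadjusted p under 0.05 without cow B. It was 1226 with only the groups compared. Other scalings, filters and blocks left these counts within 1.5 times of the values with all arrays. In 6 named genes another probe set had the opposite sign and 1 of the pair was called, in TPM2 the other one: CD46 (-0.081), GPX1 (0.12), LAMC1 (-0.11), PDGFRA (-0.081), PRDX6 (-0.54) and TPM2 (-0.91). In the gene lists THBS1 counts as not called (-0.30) although 3 other probe sets of it were called at 2.49 to 3.30, and MGP (1.92, not called) had another called at -1.39. Over 247 genes and their alternatives, 3200 of 3479 values kept direction and side of the threshold, and 236 lost their call. The cause was not tested. The 3 follicles per group limit every comparison, the spread before LH enters the tests after LH, and 2506 of the called probe sets carry no gene symbol.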

Other observations

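Some hormone and steroid genes differed more between cows than between tissues. The EGF-like ligand AREG was at 3.49, 3.39 and 8.99 in theca of cows A, B and C, against 3.67, 3.42 and 9.46 in membrane granulosa, so only the follicle of cow C was above the dim limit of 4.62. OXT and CYP11A1 were also higher in both tissues of cow C than in either tissue of cows A and B. On the third principal component of the 18 arrays, cow C stood at 49.3 in theca, 52.7 in membrane granulosa and 27.5 in antral granulosa.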
